A study of Mus musculus with 4 samples.

Results

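Muscle taken a day after a single dose of cortisol in mice without adrenal glands was compared with muscle of intact mice, gene by gene, on 2 expression arrays. All probe sets of the array that were not controls and carried 1 gene symbol entered, which was 10833 of 12422 probe sets for 8251 genes. Of these genes, 6219 reached a signal of 100 on at least 1 of the 2 arrays and were compared, and 2032 stayed below that floor on both. The series held 4 arrays of the type MG-U74Av2, 1 for each of 4 groups, and each array carried total RNA of gastrocnemius, the large superficial calf muscle, pooled from 10 mice. The group of interest was adrenalectomized mice given 0.1 mg of cortisol into the abdominal cavity 24 h before the muscle was taken. The reference was intact mice, for which neither surgery nor injection was stated. The other groups were adrenalectomized mice with no injection stated, operated 1 week earlier, and adrenalectomized mice given the same dose 3 h earlier. The interval since surgery was given for the uninjected group only, and the labels list no vehicle group. The sources used here gave no strain, age, sex or time of day. The 24 h and the intact mice therefore differed in surgery, injection and hormone together, and these cannot be told apart in this comparison.

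Each group had 1 array, so the differences had no replicate check and no test, p-value or standard error exists for any of them. Precision was limited by the number of arrays, and a pool of 10 mice shows no spread between animals. Group, pool and fluidics module (1 for intact, 4 for 24 h) cannot be told apart. The arrays were alike in median signal (189 to 199.6), in the share of probe sets at or above the floor (63.0% to 64.4%) and in the 3'/5' ratio of actin (1.04 to 1.10). The 3'/5' ratio of Gapdh, a measure of RNA integrity, was 0.884 in intact mice, 0.888 and 0.876 in the other groups, and 0.825 at 24 h. Where a gene had a second probe set, the spread between the 2 sets gave an error SD of 0.32 for a log2 ratio over 923 genes, with a correlation of 0.15 across those genes. Genes defining gastrocnemius as fast muscle, such as Myh4 and Actn3, were among the brightest on both arrays.

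Glucocorticoids cross the cell membrane and bind the glucocorticoid receptor, a transcription factor that then moves to the nucleus and raises or lowers its target genes. In skeletal muscle the hormone is known for restraining protein synthesis, raising protein breakdown, shifting fuel use from glucose to fat and setting the local circadian clock. Cortisol is a natural glucocorticoid that acts on the same receptor as corticosterone, the main adrenal glucocorticoid of the mouse.

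A day after the dose, most of the muscle transcriptome lay near the intact level. Of the 6219 genes compared, 69 (1.11%) were at least 2-fold higher at 24 h and 63 (1.01%) at least 2-fold lower, which together was 2.12%. At 1.5-fold the counts were 370 higher (5.95%) and 251 lower (4.04%). Most of the higher genes were dim: 40 of the 69 had a brighter signal under 300, and 41 were measured at or above the floor on both arrays. For the others the intact signal was below the floor and the fold is a lower bound. Among the 1429 genes with a signal of 1000 or more on both arrays, 1 was 2-fold higher (0.0700%) and 10 were 2-fold lower (0.700%). At 1.5-fold these bright genes gave 11 higher (0.770%) and 22 lower (1.54%). The split between higher and lower depended on how the arrays were scaled. It was 49 higher against 75 lower with medians set equal, 54 against 74 with ribosomal protein probe sets set equal, and 50 against 71 after quantile normalization.

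**Figure D1:**
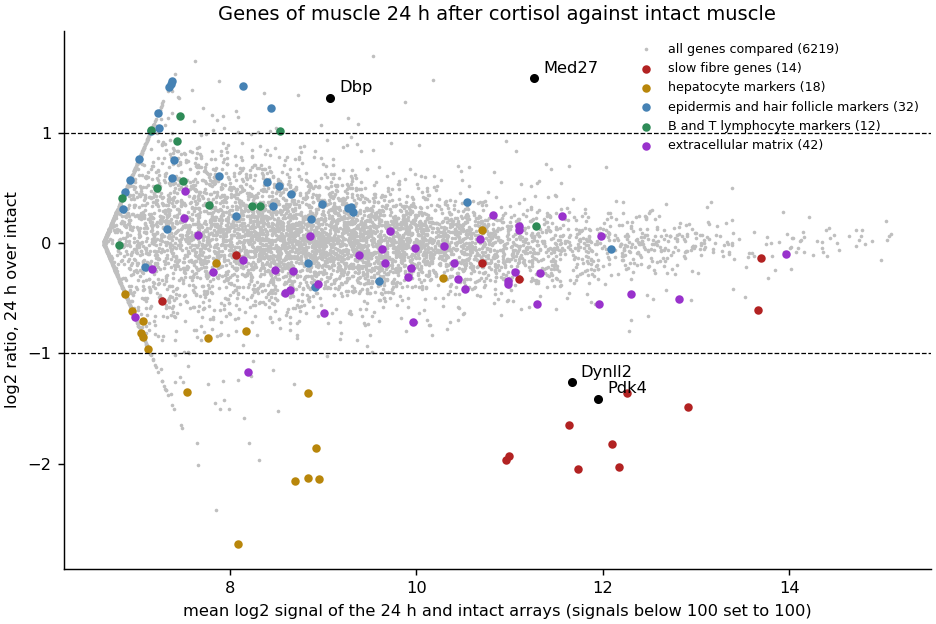
Log2 ratio of the 24 h signal over the intact signal (vertical axis) against the mean log2 signal of the 2 arrays (horizontal axis, signals below 100 set to 100) for the 6219 genes compared. Each point is a gene, dashed lines mark 2-fold, and colours mark 5 gene lists with the number of members compared. The bright genes far below 0 are 8 slow fibre genes with Pdk4 and Dynll2, while the points above 1 lie mostly at the dim end, where the floor limits the ratio along the diagonal edges.

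The size of this distance can be set beside the other pairs of arrays, which share arrays with it. The SD of log2 ratios over genes at or above the floor on both arrays was 0.346 for 24 h against intact. The SD for 3 h against intact was 0.372, that for 24 h against adrenalectomized 0.343, and that for adrenalectomized against intact 0.265. In share of genes past 2-fold, 24 h against intact (2.12%) lay between adrenalectomized against intact (0.720%) and 3 h against intact (2.87%). Past 1.5-fold the shares were 9.99% for 24 h, 9.95% for 3 h and 4.91% for adrenalectomized, each against intact. The median size of the log2 ratio among bright genes was 0.126, 0.099 and 0.086 in the same order. Whether 24 h or 3 h lay nearer to intact thus depended on the measure. Among bright genes the SD for 24 h against intact was 0.255, and it was 0.218 without the slow fibre, hepatocyte and epidermis lists, which are described below. For adrenalectomized against intact it was 0.170 with those lists and 0.169 without. The 24 h array was thus farther from intact than the uninjected adrenalectomized array was, by a measure that holds pool, array and treatment together.

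Most of the genes that define the early response to the hormone lay within 1.5-fold of intact at 24 h, as most genes did. The list of glucocorticoid-induced genes had 42 members on the array and 40 compared, with a median log2 ratio of -0.12 beside 0.03 for all genes. In it 1 member, Per1, was past 1.5-fold higher and 4, Pdk4, Mt1, Pik3r1 and Ddit4, were past 1.5-fold lower, beside 5.95% and 4.04% of all genes. At 3 h, 16 of its members had stood at least 2-fold above the uninjected adrenalectomized array. Of the 15 of these that were compared at 24 h, 12 lay within 1.5-fold of intact, beside 90.0% of all genes. Map3k6, a stress kinase gene and the remaining one of the 16, read 57.3, 49.3, 758 and 53.8 on the arrays of intact, uninjected adrenalectomized, 3 h and 24 h mice, which is the order of every set of 4 signals given here. It was below the floor on every array except that of 3 h.

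Tiparp, which encodes an ADP-ribosyltransferase, had signals of 309.6, 173, 2688 and 254. The 3 h signal alone was high, and the 24 h value was 1.22-fold below intact. Sox4, a transcription factor gene, read 184, 241, 1895 and 129, and its 24 h signal was the lowest of the 4, although a second probe set of the gene had a log2 ratio of 0.72 in the opposite direction. Pag1, an adaptor of membrane signalling, read 137, 101, 628 and 113, again with only 3 h high and 24 h 1.21-fold below intact. Mt2, a metal-binding metallothionein, read 1101, 1047, 6819 and 1072, and its 24 h and intact signals were 1.03-fold apart. Cebpd, a transcription factor gene induced by glucocorticoids and inflammation, read 813, 1314, 5503 and 739.5. Its 24 h signal was the lowest of the 4 and lay 1.10-fold below intact, while adrenalectomy alone stood above intact. Nfkbia encodes the inhibitor that holds NF-kappaB in the cytoplasm, and it read 779.8, 607, 2339.7 and 782. The log2 ratio of 24 h to intact was 0.00 for Nfkbia, of either sign depending on the scaling.

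Fkbp5, the chaperone gene that restrains the receptor and responds to the hormone in most tissues, read 1349, 796, 3771 and 1418. Here the adrenalectomized array was the lowest and the 24 h signal was 1.05-fold above intact, a direction that turned with medians set equal. Sgk1, a kinase of ion and nutrient transport, read 4508, 4396, 6803 and 4064 and was 1.11-fold lower at 24 h than in intact mice. Gadd45g, a growth arrest gene, read 816, 580.3, 2146 and 635, Cebpb, a transcription factor gene, 1730.0, 1793, 3682 and 1483, and Sesn1, which encodes a stress-induced inhibitor of mTOR complex 1, 716, 828, 2043 and 652. In each of these 3, chosen after their values were seen, the 3 h array alone was far above the rest and the 24 h signal was below intact, by log2 ratios of -0.36, -0.22 and -0.14.

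Tsc22d3, the gene of the anti-inflammatory protein GILZ, read 177, 256, 155 and 232, with the 3 h signal the lowest, and was 1.31-fold higher at 24 h than in intact mice. Glul, which makes glutamine, read 887, 815, 799 and 1073 and was 1.21-fold higher, by a probe set of relaxed design. Its other set read 281, 311, 477 and 344, highest at 3 h, with a log2 ratio of 0.29 for 24 h to intact. Cdkn1a, which encodes the cyclin kinase inhibitor p21, read 406, 332, 554 and 411. Its 24 h and intact signals were 1.01-fold apart, with a sign that turned under 3 of the 4 other scalings, while a second set read 172, 113, 583 and 256, a log2 ratio of 0.58. The receptor gene itself, Nr3c1, read 275, 311, 197 and 260.2, lowest at 3 h and 1.06-fold below intact at 24 h. In the list of the receptor and steroid metabolism 0 of 10 members passed 1.5-fold, beside 5.95% of all genes higher and 4.04% lower. The median of the list was 0.02, of either sign depending on scaling.

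A smaller set of genes from the glucocorticoid-induced list was away from intact at 24 h. Pdk4, the kinase that blocks pyruvate entry into the mitochondrial citrate cycle and so favours fat as fuel, read 6455, 7443, 9322 and 2425. The 24 h signal was the lowest of the 4 and 2.66-fold below intact, and Pdk4 was 1 of the 2 bright genes past 2-fold lower that did not belong to the slow fibre list. Ddit4, an inhibitor of mTOR complex 1 also called REDD1, read 338, 339, 4250.3 and 223. After a 3 h signal 12.6-fold above the uninjected array it was 1.51-fold below intact at 24 h. Mt1, the other metallothionein, read 568, 441, 1529 and 313 and was 1.81-fold lower than intact at 24 h, unlike Mt2. Pik3r1, the regulatory subunit of phosphoinositide 3-kinase in insulin signalling, read 257, 277, 190.0 and 149 and was 1.72-fold lower. All 4 genes, taken here for being below intact at 24 h, had their lowest signal then, and each was also below the adrenalectomized array. At 3 h Pdk4 was 1.25-fold above the adrenalectomized array and Pik3r1 1.46-fold below it.

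**Figure D2:**
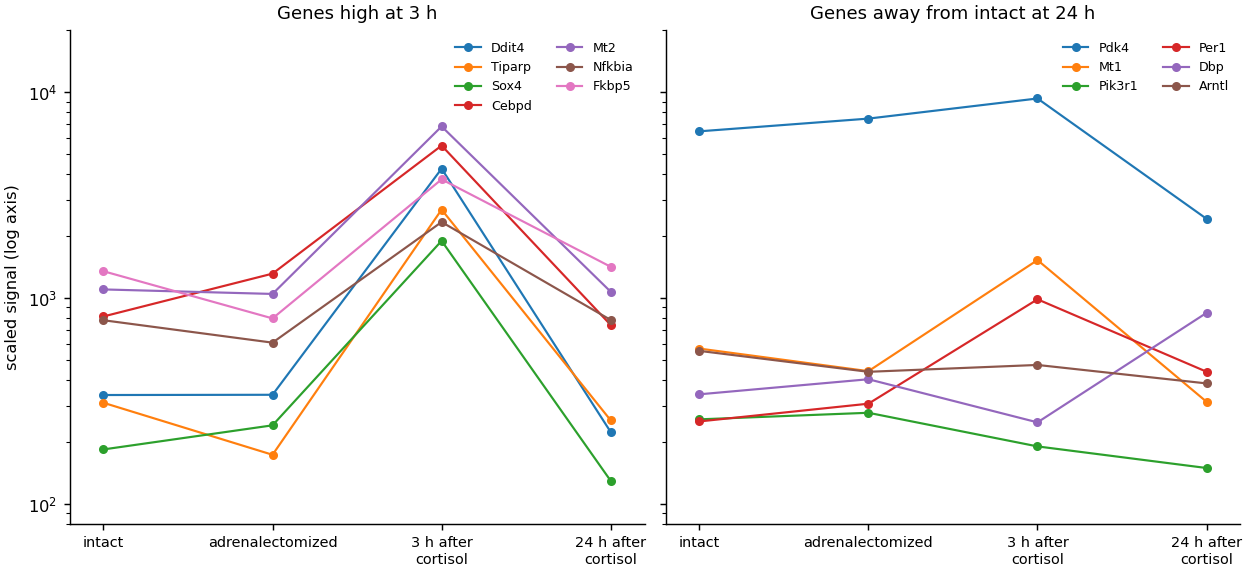
Scaled signal (log axis) of single genes on the 4 arrays, each a pool of 10 mice, with lines joining the values of 1 gene. The left panel shows 7 genes that were high at 3 h and lay near or below intact at 24 h. The right panel shows Pdk4, Mt1, Pik3r1 and Arntl with their lowest signal at 24 h, and Dbp and Per1 above intact at 24 h.

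Of 18 clock genes compared, 13 had a ratio above 0, beside 3347 of 6219 genes, and the median was 0.14. Dbp and Per1 were past 1.5-fold higher, beside 5.95% of all genes, and 0 members were past 1.5-fold lower. Dbp, a transcription factor gene driven directly by the clock, read 340.4, 403, 249 and 847. Its 24 h signal was the highest of the 4 and 2.49-fold above intact, while the 3 h signal was the lowest. Per1, a core repressor of the clock that glucocorticoids induce, read 251, 306, 986 and 438 and was 1.74-fold higher at 24 h. Its adrenalectomized signal was 3.22-fold below the 3 h signal and above intact. Per3 read 323, 302, 345 and 454, highest at 24 h by 1.40-fold over intact. Arntl, the activator also called Bmal1, went the other way: it read 553, 438, 473 and 385, lowest at 24 h and 1.44-fold below intact.

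The other clock genes differed less. Nr1d1, the repressor Rev-erb alpha, read 2396, 1981, 958 and 2670.2, and Bhlhe40, the repressor Dec1, read 1383, 1359, 641 and 1636. Both were lowest at 3 h and above intact at 24 h, with log2 ratios of 0.16 and 0.24. The log2 ratios of the other repressors were -0.28 for Cry1, 0.36 for Cry2 and 0.09 for Nr1d2. Nfil3, which represses the sites that Dbp activates, had a ratio of -0.45 (-0.68 by its other set), and Tef, an activator related to Dbp, had 0.21. The ratios of Clock (0.05) and Rora (0.07) were near 0 and turned sign with scaling. The remaining ratios were 0.38 for Timeless, 0.23 for Usp2, -0.39 for Csnk1e and -0.10 for Csnk1d, whose other sets ranged from -1.27 to 0.39. Per2 reached the floor at 24 h and 3 h only, with signals of 65.7, 73, 146 and 109, and Npas2 was below it on every array. The hour at which each pool was taken was not given, so the part of time of day in these values was not tested.

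The genes that differed at 3 h could be followed on the other 2 arrays, since 3 h against adrenalectomized and 24 h against intact share none. At 3 h, 115 genes (1.86% of 6168) were at least 2-fold above the adrenalectomized array, and 102 of them were compared at 24 h against intact. Of these, 68 lay within 1.5-fold of intact, 28 were past 1.5-fold higher and 6 past 1.5-fold lower, with a median log2 ratio of 0.16. In percent, 27.5% were higher and 5.88% lower, beside 5.95% and 4.04% of all genes, 90.0% of which lay within 1.5-fold. The 72 genes at least 2-fold lower at 3 h (1.17%) gave 69 compared, with 41 within 1.5-fold, 21 lower (30.4%) and 7 higher (10.1%), and a median of -0.16. Much of the remainder came from 3 marker lists. Without the epidermis and hair follicle, hepatocyte and slow fibre lists, 61 of 83 early-higher genes were within 1.5-fold. Of the 83, 16 were higher (19.3%) and 6 lower (7.23%), with a median of 0.10. Of 56 early-lower genes 41 were within 1.5-fold, 7 higher (12.5%) and 8 lower (14.3%), with a median of -0.03. These shares still stood above the 5.95% higher and 4.04% lower of all genes. The ratios at 3 h and at 24 h had a correlation of 0.15 across 5452 genes and 0.07 across 5405 genes without these lists. Genes are not independent replicates, and the values are given as a description.

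**Figure D3:**
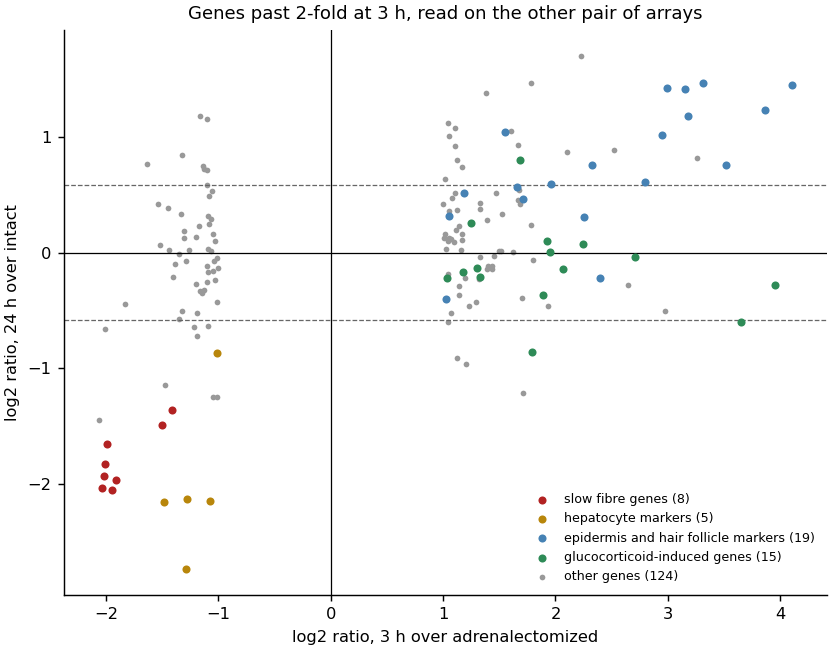
Log2 ratio of 24 h over intact (vertical axis) against log2 ratio of 3 h over adrenalectomized (horizontal axis) for the genes at least 2-fold apart at 3 h and compared at 24 h. Each point is a gene, dashed lines mark 1.5-fold and colours mark 4 lists. The 15 glucocorticoid-induced genes lie around 0 on the vertical axis, while the 8 slow fibre and 5 hepatocyte genes lie low on both axes and most of the 19 epidermis and hair follicle genes lie high on both.

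The group of muscle genes farthest from intact at 24 h was that of slow fibres. Slow, or type I, fibres contract with their own forms of myosin, troponin and calcium pump, and in the calf they are concentrated in soleus, a muscle that lies against gastrocnemius. Of 14 members compared, all had a ratio below 0, 9 were past 1.5-fold lower and 8 past 2-fold lower, beside 4.04% and 1.01% of all genes, and the median was -1.42. These 8 made up most of the 10 bright genes past 2-fold lower. The bases before the start of 2 troponin genes of slow fibres and 1 of fast fibres are shown because the slow members were low together while the fast one was not. Each is the 250 bases before the start in RefSeq for GRCm38.p6, 5′ to 3′ on the strand of the gene, with matches to 4 short motifs on either strand in capitals.
Tnnt1, chr7:4515976-4516225, minus strand: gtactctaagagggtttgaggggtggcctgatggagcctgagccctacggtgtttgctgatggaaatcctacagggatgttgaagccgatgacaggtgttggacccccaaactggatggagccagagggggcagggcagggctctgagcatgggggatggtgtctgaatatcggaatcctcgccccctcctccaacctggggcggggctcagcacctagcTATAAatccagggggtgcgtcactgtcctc
Tnnc1, chr14:31208062-31208311, plus strand: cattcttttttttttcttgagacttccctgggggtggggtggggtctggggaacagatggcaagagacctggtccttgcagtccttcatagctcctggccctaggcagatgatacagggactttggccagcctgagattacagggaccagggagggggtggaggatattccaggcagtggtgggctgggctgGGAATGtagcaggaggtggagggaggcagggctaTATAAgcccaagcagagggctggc
Tnnc2, chr2:164779735-164779984, minus strand: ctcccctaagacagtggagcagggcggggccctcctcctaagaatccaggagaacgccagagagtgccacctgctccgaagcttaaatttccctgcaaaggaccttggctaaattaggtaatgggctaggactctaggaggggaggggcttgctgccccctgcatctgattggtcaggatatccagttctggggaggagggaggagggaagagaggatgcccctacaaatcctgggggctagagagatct
The motifs searched were TATAA, the core of the TATA box, AGAACA, a half-site of the glucocorticoid receptor, CAGCTG, an E-box of myogenic factors, and CATTCC, the MCAT element. TATAA began 30 bases before the start of Tnnt1 and 24 before that of Tnnc1, and GGAATG, the reverse complement of CATTCC, 58 before that of Tnnc1. None of the 4 was in the Tnnc2 window. Of all 32851 windows of that length, 22.8% held TATAA, 16.1% AGAACA, 13.0% CAGCTG and 12.6% CATTCC. Of 16 slow fibre genes with a window, 6 held TATAA, 4 AGAACA, 6 CAGCTG and 4 CATTCC, and of 17 fast fibre genes 6, 4, 8 and 8 did. The 3 windows printed therefore do not stand for their lists, in which TATAA and CATTCC were found in fast genes as well. A match describes the letters only.

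Myh7, the slow myosin heavy chain, read 8238, 9419.7, 2342 and 2325, and was 3.54-fold lower at 24 h than in intact mice. Both arrays after cortisol were low and both without it high, and the next 7 genes split the arrays in the same way. They and Myh7 are the list members farthest below intact at 24 h, so part of this split follows from that choice. The share of all genes that split the arrays so was not counted. Arrays on the same side of the split are different groups and not replicates. Among troponins of the slow thin filament, Tnnt1, which binds tropomyosin, read 9315, 11148, 2711 and 2279.6 and was 4.09-fold lower, with a second probe set at a log2 ratio of -0.89. Tnnc1, which binds calcium, read 3938, 4868, 1296 and 1011 and was 3.90-fold lower. Tnni1, the inhibitory subunit, read 5659, 7031, 1768 and 1802 and was 3.14-fold lower. Tpm3, the slow tropomyosin to which these subunits attach, read 6936, 7136, 1854 and 1677 and was 4.14-fold lower. Atp2a2, the calcium pump of slow fibres, read 3971, 4545, 1119 and 1045 and was 3.80-fold lower. The slow myosin light chains Myl2 and Myl3 read 12949, 13850.2, 4890.1 and 4627, and 7845, 8959.6, 3362 and 3066, and were 2.80-fold and 2.56-fold lower.

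The other members of the slow list were lower by less. Mb, the oxygen store myoglobin, read 16017, 15394, 10645 and 10529.9 and was 1.52-fold lower. Fhl1 (-0.14), Csrp3 (-0.18), Casq2 (-0.11), Sln (-0.53) and Ankrd2 (-0.33) had log2 ratios within 1.5-fold. The probe sets of Tnnt1, Atp2a2 and Myh7 carried suffixes for probes shared with other transcripts or chosen by relaxed rules, and leaving such sets out gave a list median of -0.75. Of the 13 soleus-enriched genes outside the list, 11 were below 0, beside 2872 of 6219 genes, with a median of -0.24. Past 1.5-fold there were 0 of the 13, beside 5.95% of all genes higher and 4.04% lower. Fabp3 (-0.51), which carries fatty acids, Actn2 (-0.52), Ldhb (-0.50) and Idh2 (-0.58) were the lower ones of these. The summed signal of the slow list was 93460.3, 99729, 43976 and 44975. The part of soleus tissue, or of fewer slow fibres in the dissected piece, was not tested. In bulk muscle, fewer cells of a type and less RNA per cell cannot be told apart.

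Fast fibre genes lay close to intact. Of 19 compared, 1 was past 1.5-fold lower and 0 higher, beside 4.04% and 5.95% of all genes. The median was 0.02, which was -0.06 with medians set equal, -0.04 with ribosomal protein sets set equal and 0 after quantile normalization. Myh4, the myosin of the fastest fibres, read 33475, 34919, 33149 and 34187, and Myh1, that of the next fastest, 14281, 14557, 14048 and 14258. Tnnt3, the fast partner of Tnnt1, read 31442, 31871, 32844 and 36007 and was 1.15-fold higher at 24 h. Tnnc2 read 20337, 20949, 19831 and 18889.7 and Atp2a1, the fast calcium pump, 33698, 34676, 34575 and 35146. The largest ratios of the list were 0.52 for Tnni2, the fast inhibitory subunit, which read 2001, 2293, 2103 and 2864, and -0.67 for Gpd1, a glycerol phosphate shuttle enzyme, which read 7228, 5032, 6298 and 4558. Gpd1 was also lower than intact after adrenalectomy alone. The summed signal of the fast list was 406557 in intact mice and 409942 at 24 h. Several of these signals were among the highest on the arrays, where the top deposited signal was 35320 in intact mice and 37846 at 24 h, and whether signals so high respond in full was not tested.

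**Figure D4:**
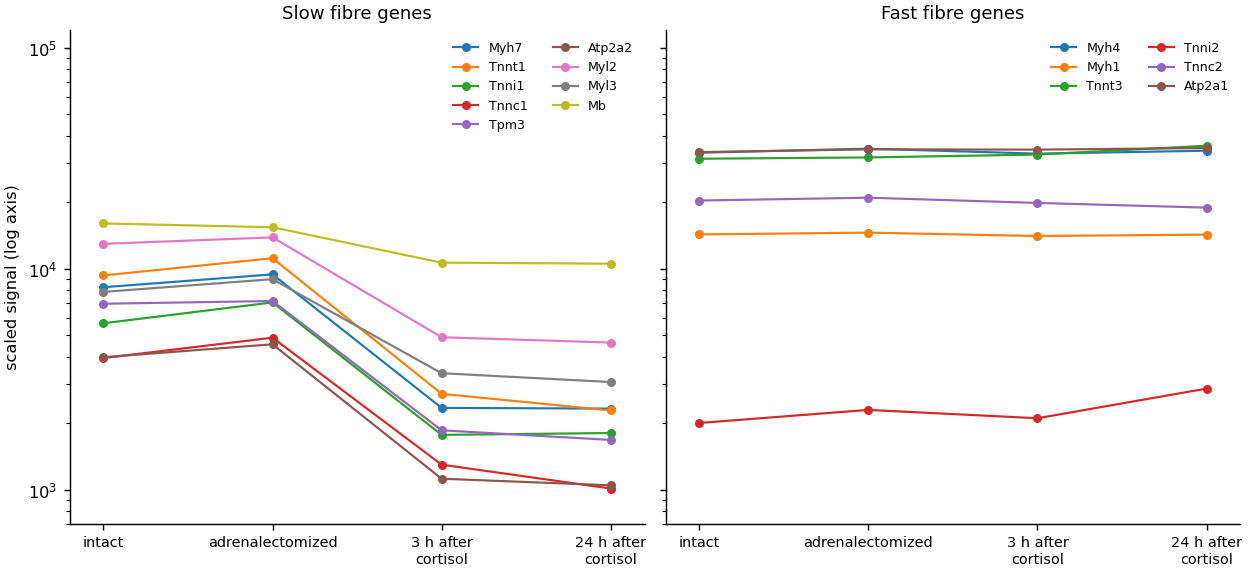
Scaled signal (log axis) of 9 slow fibre genes (left) and 6 fast fibre genes (right) on the 4 arrays, each a pool of 10 mice, with lines joining the values of 1 gene. The slow genes are high on the intact and adrenalectomized arrays and low on both arrays after cortisol, while the fast genes other than Tnni2 stay nearly level.

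Few fuel genes other than Pdk4 were past 1.5-fold, beside 5.95% of all genes higher and 4.04% lower. In the list of fatty acid uptake and oxidation, 24 of 31 members were below 0, beside 2872 of 6219 genes, and the median was -0.24, with 2 past 1.5-fold lower, Pdk4 among them, and 1 higher. Decr1, an enzyme for unsaturated fatty acids, read 770.2, 619.9, 559 and 497 and was 1.55-fold lower. Acot1, a thioesterase that PPAR alpha induces, read 84.3, 41.4, 176 and 162 and was at least 1.62-fold higher. Lpl (-0.47), which frees fatty acids from lipoproteins, Hadh (-0.48), Slc27a1 (-0.46) and Ucp3 (-0.45) were within 1.5-fold, the last with signals of 969, 1041, 1728 and 709.9. Oxidative phosphorylation had 0 of 49 members past 1.5-fold and a median of -0.07, and the TCA cycle 0 of 18 and -0.09. Glycolysis and glycogen had 1 of 27 past 1.5-fold, Gpd1, and a median of 0.01 of either sign under scaling.

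Most genes of muscle mass were within 1.5-fold of intact, as were 90.0% of all genes. The muscle atrophy and autophagy list had 25 members compared and a median of 0.02 (negative with medians or ribosomal protein sets set equal). Atg7, an enzyme that starts autophagosome growth, was the 1 member past 1.5-fold and read 114, 153, 178 and 185. Foxo3, the transcription factor that drives atrophy genes, read 541, 524, 874 and 551 and was 1.02-fold from intact, with a sign that turned under scaling. Mstn, the secreted brake on muscle growth, read 2347, 1986, 2938 and 2469 and was 1.05-fold above intact, also turning sign with medians set equal. The proteasome list had 0 of 28 members past 1.5-fold and a median of -0.03, which turned positive after quantile normalization. Of 30 genes of insulin-like growth factor and myogenic regulation, 3 were lower and 0 higher past 1.5-fold, beside 4.04% and 5.95% of all genes. The 3 were Fst, Pik3r1 and Ddit4, and the median of the list was -0.15. Fst, which encodes follistatin, the binding protein that blocks myostatin, read 208, 181, 155 and 80 and was at least 2.08-fold lower. Igf1, a growth factor of muscle, had a ratio of 0.30, Myod1 of -0.27 and Myog of 0.21.

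At the neuromuscular junction, 2 of 13 members were past 1.5-fold lower, beside 4.04% of all genes, and the median was -0.13. Both were subunits of the acetylcholine receptor. Chrne, the adult subunit, read 454, 298, 319 and 197, and had a ratio of -1.20, while its other sets gave 0.55 and -0.53. Leaving out sets with suffixes made the value 0.55. Chrng, the fetal subunit, read 194, 64.6, 230.5 and 84.8 and was at least 1.94-fold lower. Among muscle stress and embryonic genes 3 of 13 were past 1.5-fold lower (Chrng, Mt1 and Ankrd1), beside 4.04% of all genes. The median was -0.03, which turned positive with all probe sets averaged. Ankrd1, a stretch-responsive protein of the sarcomere, read 317, 187, 135 and 178. Heat shock proteins had 0 of 18 past 1.5-fold and a median of -0.05. Immediate early genes had 2 of 19 higher, Fosb at 1.79-fold and Junb at 1.60-fold, beside 5.95% of all genes. Their median was 0.02, of either sign.

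The matrix genes of connective tissue were lower on balance. Of 42 compared, 31 were below 0, beside 2872 of 6219 genes, and the median was -0.24. Past 1.5-fold, 4 were lower and 0 higher, beside 4.04% and 5.95% of all genes. Col5a2, a chain of fibrillar collagen, read 1278, 1375, 1191 and 779 and was 1.64-fold lower. Col11a1, of another fibrillar collagen, read 159, 199, 136 and 56 and was at least 1.59-fold lower. Timp1, an inhibitor of matrix proteases, read 643, 565, 266 and 413, lowest at 3 h and 1.56-fold below intact at 24 h. Col18a1, a basement membrane collagen, had a ratio of -1.17, but its second set gave 0.03. The main fibrillar chains, named after their values were seen, were within 1.5-fold. Col1a1 read 8595, 10669, 8294 and 6054, Col1a2 4811, 6063, 4998 and 3285 and Col3a1 3048, 3480.1, 3681 and 2074, each with its lowest signal at 24 h. The basement membrane chains Col4a1 (0.25) and Col4a2 (0.16) were above intact, and their adrenalectomized signals of 4298 and 3516 stood higher still.

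Genes of lymphocytes were higher at 24 h. Of 12 compared, 11 were above 0, 4 were past 1.5-fold and 3 past 2-fold higher, beside 5.95% and 1.11% of all genes. The median was 0.45. All 12 reached the floor at 24 h but only 10 did in intact mice. The others, Cd22 among them, could not read lower at 24 h, so these counts follow in part from the floor. The 4 past 1.5-fold were B cell genes. Cd79a and Cd79b, the signalling chains of the B cell receptor, read 262, 129.6, 246 and 528, and 118, 69.3, 196 and 262, and were 2.02-fold and 2.22-fold higher than intact. Cd22, a B cell lectin, read 34.4, 28.6, 83.1 and 204 (at least 2.04-fold higher), and Blk, a kinase of the same cells, 125, 90.6, 113 and 237 (1.90-fold higher). Each was highest at 24 h. Cd79a, Cd79b and Blk were lowest after adrenalectomy alone, and Cd22 was below the floor on all arrays but that of 24 h. The T cell genes Cd3d, Cd3e, Cd3g, Cd8a and Cd8b1 were below the floor on all 4 arrays, and Cd4 had a ratio of 0.33. The summed signal of the list was 4227, 3369, 4202 and 5745.

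Igkv6-23, a variable segment of the kappa light chain, read 411, 69.7, 468 and 1332 and was the highest measured gene of the comparison at 3.24-fold, by a probe set shared with related segments. Jchain, which joins secreted IgM and IgA and was named after its value was seen, read 157, 81.4, 206 and 341. Both were highest at 24 h and lowest after adrenalectomy alone. Cd52, a surface protein of lymphocytes, read 206, 229.9, 209 and 526 and was 2.56-fold higher. In the list of interferon response and antigen presentation 3 of 23 were past 1.5-fold higher, beside 5.95% of all genes. In this list 17 were above 0, beside 3347 of 6219 genes, with a median of 0.21. Psmb9, an immunoproteasome subunit, was 1.64-fold higher, Gbp3, an interferon-induced GTPase, 1.55-fold, and H2-Aa, a class II chain, 1.54-fold, with signals of 814, 1005, 868 and 1254 for the last. Cd74, the class II chaperone, had a ratio of 0.54. The part of a different number of lymphocytes in the pools was not tested.

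**Figure D5:**
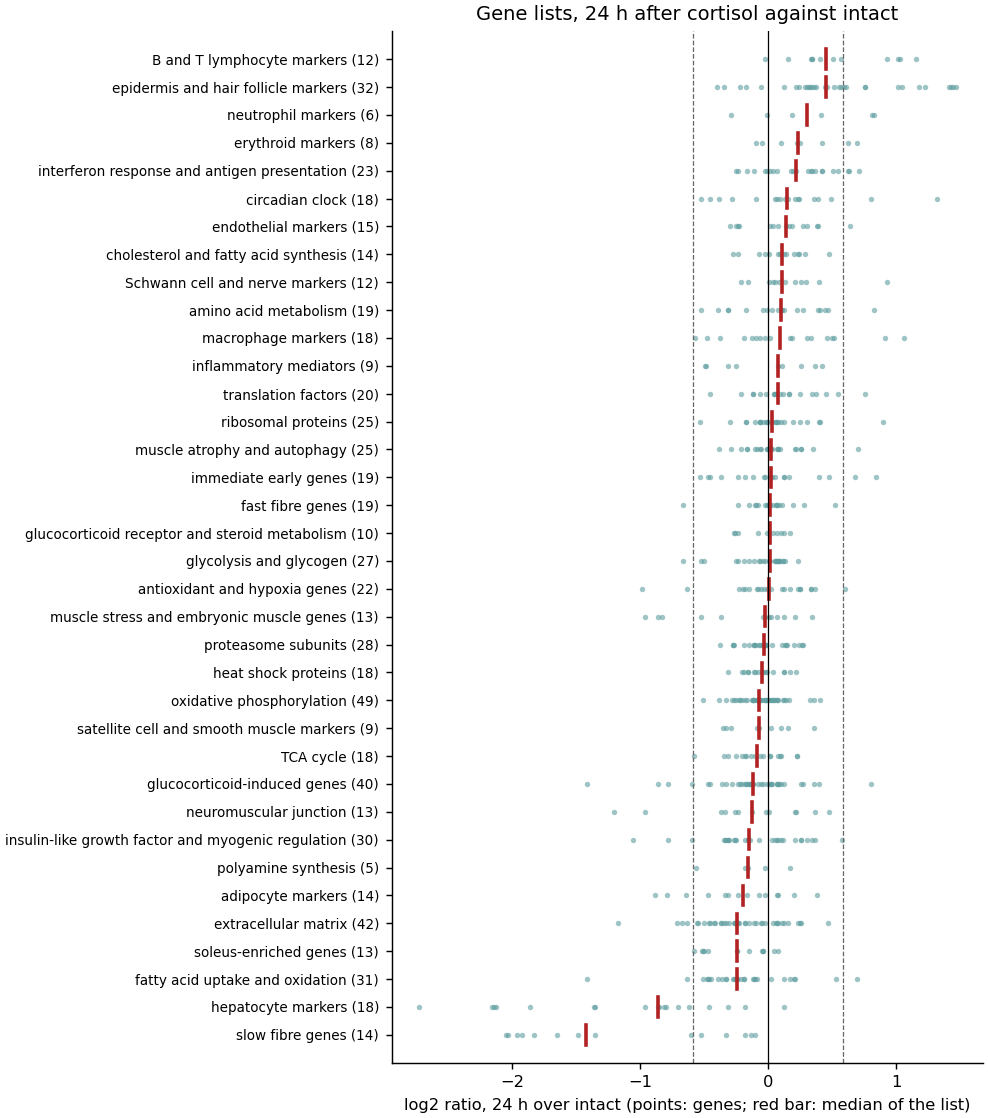
Log2 ratio of 24 h over intact for the members of each gene list with at least 5 members compared (points), with the median of the list as a red bar and the number of members in brackets. Dashed lines mark 1.5-fold. Slow fibre genes (-1.42) and hepatocyte markers (-0.86) lie lowest, epidermis and B and T lymphocyte markers (both 0.45) highest, and most other lists lie around 0.

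Transcripts of tissues other than muscle differed between the pools. Of 18 hepatocyte markers compared, 17 were below 0, 14 were past 1.5-fold and 7 past 2-fold lower, beside 4.04% and 1.01% of all genes. The median was -0.86. All 18 reached the floor in intact mice but only 13 did at 24 h. The rest could not read higher at 24 h, so these counts follow in part from the floor. Alb, serum albumin, read 956, 686, 282 and 218 and was 4.38-fold lower at 24 h. Serpina1b, 1 of several near-identical alpha-1-antitrypsin genes, read 698, 507, 207 and 105 and was 6.64-fold lower, the largest measured ratio of the comparison. Serpina1e (4.45-fold), Serpina1c (3.63-fold) and Mup3 (4.41-fold), a major urinary protein, were also lower, by probe sets shared with their close relatives. The summed signal of the list was 10848, 8254, 6072 and 5435, and 10 of its 28 members on the array, Apob and Apoh among them, were below the floor on all 4 arrays. The intact pool thus had the most of these transcripts, and the 24 h pool the fewest. Their part in the other differences was not tested.

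Epidermis and hair follicle markers differed the other way. Of 32 compared, 12 were past 1.5-fold and 8 past 2-fold higher, beside 5.95% and 1.11% of all genes. The median was 0.45, and 0 were past 1.5-fold lower. All 32 reached the floor at 24 h but only 24 did in intact mice. The rest entered through the 24 h array alone and could not read lower, so these counts follow in part from the floor. Krt10, a keratin of the upper epidermis, read 227, 175, 2549 and 531 and was 2.34-fold higher at 24 h than in intact mice. Krt71, of the hair root sheath, read 172, 202, 1614 and 460.4 and was 2.68-fold higher. Dsp, which anchors keratin at desmosomes, read 58.5, 67.4, 1719.9 and 272 and was at least 2.72-fold higher. Krt27 (at least 2.76-fold) and Krtdap (at least 2.66-fold) had the same order of arrays, with 3 h far above the rest and 24 h next. The summed signal was 13973, 14878, 32249 and 17461, and Krt5, Krt14 and Krt15 of the basal layer were below the floor on all 4 arrays. These genes made up 8 of the 69 past 2-fold higher, and hepatocyte and slow fibre genes 7 and 8 of the 63 lower. Without the 3 lists, which were left out after the values were seen, the counts were 61 and 48.

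Markers of other cells gave smaller differences. Their counts past 1.5-fold stand beside 5.95% of all genes higher and 4.04% lower. Adipocyte markers had a median of -0.20, with 3 of 14 past 1.5-fold lower. Adipoq, the fat hormone adiponectin, read 1802, 1319, 1171 and 1156 and was 1.56-fold lower, and Retn, the fat hormone resistin, 525, 384, 324 and 303 and 1.73-fold lower. Apoc1 read 279.6, 205, 247 and 152. In all 3 the intact signal was the highest, above adrenalectomy alone. Macrophage markers had 2 of 18 higher, Cd53 at 2.08-fold and Fcgr3 at no less than 1.88-fold, and a median of 0.09. Neutrophil markers had 2 of 6 higher, Elane and Camp, with a median of 0.30, although 9 other markers, such as S100a9, were below the floor throughout. Erythroid markers had 2 of 8 higher, Hbb-b2 (1193, 1745, 1906 and 1926) and Alas2, with a median of 0.23. In endothelial markers Cdh5, the junction protein VE-cadherin, read 1459, 1764, 2257 and 2274 and was the 1 of 15 past 1.5-fold, with a median of 0.14. Schwann cell and nerve markers had 1 of 12 higher, Gfap at no less than 1.90-fold, and a median of 0.11. The other Gfap set was below the floor on every array. All 12 reached the floor at 24 h but only 9 did in intact mice, and the rest could not read lower at 24 h. Satellite cell and smooth muscle markers had 0 of 9 and a median of -0.07, positive with probe sets averaged. The Y-linked Eif2s3y read 529, 604, 578 and 531, so the pools were alike in it.

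The remaining lists stayed near all genes, of which 5.95% were past 1.5-fold higher and 4.04% lower. Ribosomal proteins had 1 of 25 past 1.5-fold higher, Rpl32, which was dim, and a median of 0.03 of either sign, and translation factors had 1 of 20 and 0.08. That 1 was Eif2s2, 1.69-fold higher by its brighter set and with a ratio of 0.08 by the other. Amino acid metabolism had 1 of 19 higher, Phgdh, an enzyme of serine synthesis at no less than 1.77-fold, and a median of 0.10. Polyamine synthesis had 0 of 5 and -0.16, and cholesterol and fatty acid synthesis 0 of 14 and 0.11. Inflammatory mediators had 0 of 9 past 1.5-fold and a median of 0.08, which was -0.25 over members measured on both arrays, and 9 of the 22 members on the array could be compared. Among antioxidant and hypoxia genes 1 of 22 was higher and 2 lower, with a median of 0.00 of either sign. Gpx1, a glutathione peroxidase, was 1.52-fold higher, and Vegfa, the growth factor of blood vessels, read 1299, 1109, 594 and 836 and was 1.56-fold lower. Gstm2, a glutathione transferase, read 1035, 1087, 1234 and 522 and was 1.98-fold lower, but its second set had a ratio of 0.87.

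Single genes outside the lists also stood far from intact at 24 h. Med27, a Mediator subunit of the transcription machinery, read 1459, 1572, 1502 and 4107. It was the only bright gene past 2-fold higher and was high on the 24 h array alone, by a probe set of relaxed design. Tmem70, an assembly factor of ATP synthase, read 694, 678, 494 and 1927, Pfn1, the actin-binding profilin, 142, 188, 67.6 and 392, and Rmc1 267, 370.4, 304 and 676, each highest at 24 h. Pdc (3.13-fold), Syne4 (2.62-fold) and Larp7 (2.60-fold) were also higher than intact but read above intact on the adrenalectomized array too. The sets of Pdc and Syne4 were of relaxed design, and the other set of each was below the floor on every array. For Larp7 the other sets had ratios of -0.09 and -0.34, in the opposite direction. The next bright gene was Rhoc, a small GTPase, 1.89-fold higher by 1 set and with a ratio of -0.08 by the other. Tmem38b, an intracellular cation channel, read 1610.4, 2511, 2517 and 2877, and Mfge8, a bridge for cell uptake, 2506, 2587, 2749.7 and 4058. Htra2, Hgs and Clptm1 were 1.65, 1.59 and 1.57-fold higher. The Htra2 set was of relaxed design, and the other set of that gene had a ratio of 0.37. Ddx17 and Nfic were 1.62-fold and 1.61-fold higher by their brighter sets, and their other sets had ratios of -0.14 and -0.28. Where the intact signal was below the floor, Tub was at least 2.89-fold and Traip at least 2.76-fold higher. The other set of each of these genes was below the floor on every array.

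Among lower genes, Rab3a, a GTPase of vesicle release, read 627, 591, 355 and 160.3 and was 3.91-fold lower, while its other set was below the floor on every array. P2rx6, a purine receptor subunit known from skeletal muscle, read 404, 303, 158 and 80.2 and was at least 4.04-fold lower, and Atp13a1, a transport ATPase of the endoplasmic reticulum, 319, 308, 279.6 and 73.2 and at least 3.19-fold lower. In these 3 the 24 h signal was the lowest of the 4. Zbtb17, a transcription factor gene, read 379, 561, 134 and 139 and was low on both arrays after cortisol, and so was the brighter set of Lef1, an effector of Wnt signalling, with 185, 457, 113 and 117. The other Lef1 set had the opposite pattern, since it was below the floor on the intact and adrenalectomized arrays and read 107 and 137 at 3 h and 24 h. Meg3, a long noncoding RNA, was at least 5.35-fold lower by its brighter set and had a ratio of 0.13 by the other. Dynll2, a dynein light chain, read 5031, 1961, 2332 and 2094, so that the intact array alone was high, and its other set had a ratio of -0.09. Camk2a, a calcium-dependent kinase named after its value was seen, read 552, 149.6, 239 and 157, with ratios of -1.81 and -1.17 by 2 sets, and again only the intact array was high. Over the 18 genes past 2-fold that had a second measured set, that set had the same sign for 9 and was past 1.5-fold the same way for 5. The 5 included Camk2a, Mup3, Serpina1c and Tnnt1.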

How the data were processed

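The deposited values were probe set intensity signals of 4 MG-U74Av2 arrays, obtained by the authors with the MAS 5.0 software, per the labels. Other settings were not given in the sources that were used, and the deposited columns had a trimmed mean of 500 (500.6 at 3 h). The fluidics module of each array came from the deposited instrument settings.

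Of 12488 probe sets, 66 were controls, 20 of whose values were missing and not used. Gene symbols came from the annotation of the platform. Of the 12422 other probe sets 10833 had 1 symbol, 1193 none and 396 several. By gene ID, 10817 matched the RefSeq gene table for GRCm38.p6, which changed 0 symbols. Each array was scaled to a trimmed mean of 500 over the 12422 sets (2% left out at each end), signals under a floor of 100 were set to it, and log2 ratios were computed from the deposited signals with Python 3.11.15, numpy 2.4.6 and pandas 2.3.3. A gene was its brightest probe set by mean signal over the 4 arrays. The set used for 1045 genes carried a suffix for shared or relaxed probes, and 2073 genes had several sets. The selection and ratio steps were checked on simulated data.

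With 1 array per group no test was run. A gene counted as different at 2-fold, or at 1.5-fold within lists, and lists of at least 5 compared members were described by counts and the median log2 ratio. A fold is a lower bound where 1 of the 2 signals was under the floor. The 37 gene lists are those named in the report, the sex-linked genes among them (2 compared, so no median). The members and lists were chosen with earlier results of these data known. Genes were named by rule. The rule took the 10 highest and 10 lowest measured genes past 2-fold, the 3 highest and 3 lowest lower bounds, and the 10 highest and 10 lowest with signals of 1000 or more on both arrays. It also took up to 5 members of each list past 1.5-fold in each direction, 19 known hormone-responsive genes, all clock genes, the fibre type myosins, troponins and calcium pumps, and the 10 highest and 5 lowest genes at 3 h. Other genes in the text were named after their values were seen, or give the smaller members of a list. The alternatives tried were 4 other scalings, floors of 50 and 200, a pseudocount of 100, all probe sets averaged, suffixed sets left out, both arrays at or above the floor, a minimum signal of 300, and marker lists left out.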

Additional observations from a re-analysis of the deposited data

Results flagged for a closer look

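Probe sets with no gene symbol or with several lay outside the comparison of genes. Of these 1589 probe sets, 846 reached the floor on at least 1 of the 2 arrays, and 18 stood 2-fold or more above intact at 24 h and 11 stood 2-fold or more below. Together they were 3.43% of the unnamed sets compared. They are listed here because they differed in data that the gene comparison did not use, and no name was given to them.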

How the results depend on the processing

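The counts depended on how dim genes were treated. For 2-fold higher the count of 69 became 193 with a floor of 50, 19 with a floor of 200, 33 with a pseudocount of 100, 41 with both arrays at or above the floor and 29 with a minimum signal of 300. For 2-fold lower, 63 became 155 and 32 with those floors and 38 with the minimum signal. At 1.5-fold, 370 higher became 651, 155, 216 with the pseudocount and 155 with the minimum signal, and 251 lower became 431, 126 and 126 with the floors and the minimum signal. The share of higher genes among those past 2-fold was 52.3%. It was 39.5% with medians set equal, 42.2% with ribosomal protein sets set equal, 41.3% after quantile normalization, 37.3% with a floor of 200 and 40.7% with the pseudocount. Of genes higher at 3 h, 28 were past 1.5-fold higher at 24 h. That count was 65 and 7 with the floors, 18 with the pseudocount and 11 with both arrays at or above the floor. Of genes lower at 3 h, 21 were past 1.5-fold lower, and 32 with ribosomal protein sets set equal, 44 with a floor of 50 and 13 with the pseudocount. Their median of -0.16 was -0.57 with a floor of 200. Among list medians, that of inflammatory mediators went from 0.08 to -0.25 with both arrays at or above the floor. Slow fibre genes went from -1.42 to -0.75 without suffixed sets, and hepatocyte markers from -0.86 to -1.36 with a floor of 50 and -1.35 with both arrays at or above the floor. The ratio of Chrne turned from -1.20 to 0.55 without suffixed sets, which leaves other probe sets of the gene. Fewer or more dim genes pass under each floor or minimum by construction, and for the other shifts the cause was not tested.

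Of 44 named genes past 2-fold, 43 kept their sign under every alternative run for them, Chrne being the exception. Most alternatives reuse the same 2 signals of a gene, so a ratio past 2-fold could hardly turn sign under them. A change of probe set could turn it, and the second set had the same sign for 9 of the 18 genes past 2-fold that had one measured. Of 36 list medians 25 kept their sign. The alternative without the slow fibre, hepatocyte and epidermis lists was chosen after seeing the data. Leaving out a replicate was not possible with 1 array per group. No paired analysis was possible because each group had 1 array. Signals near the floor carry little information, and the comparison cannot separate differences between pools from those of the treatment.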

Other observations

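Genes past 2-fold that belonged to no list included several with known sites of expression outside muscle fibres, all of them picked after their values were seen. Igfals, the liver-made carrier subunit of insulin-like growth factors in blood, read 374, 273, 217 and 107 on the intact, adrenalectomized, 3 h and 24 h arrays and was 3.51-fold lower at 24 h than in intact mice. Agt, which encodes angiotensinogen, another plasma protein of liver, read 284, 169, 235 and 84.8 and was at least 2.84-fold lower. Both had their highest signal in intact mice and their lowest at 24 h, and the same was true of the hepatocyte list as a whole.

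Krt72, a keratin of the hair root sheath, read 192, 195, 405 and 386, and Ly6d, a surface protein of keratinocytes and B cells, read 171, 161, 489.5 and 353. Both were highest at 3 h and 2.01-fold and 2.06-fold above intact at 24 h. H2-Oa and H2-Ob, the chains of the class II modulator found in B cells, read 183, 226, 263 and 402, and 63.5, 18.9, 85.6 and 240.2, with the highest signal at 24 h in each. Oxt, which encodes oxytocin, read 429.7, 129.8, 125 and 151, so that only the intact array was high.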
